A study of Mus musculus with 31 samples.

Results

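Hippocampal RNA of aged and young adult Glud1 transgenic (Tg) mice was compared on 6 arrays of the 31 in the series, 3 from Tg mice of 20 months and 3 from Tg mice of 4.5 months. The 6 arrays were chosen by their labels of genotype and age alone, and all 45037 mouse probe sets of the 45101 probe sets on the array entered the comparison, the other 64 being controls. The Tg mice carry extra copies of the coding sequence of Glud1, the gene of the mitochondrial enzyme glutamate dehydrogenase 1, driven in neurons of the central nervous system only, on the C57BL/6 background. Of the other arrays, 3 Tg mice at 9 and 3 at 14.5 months show the ages between, and 3 wild type (wt) C57BL/6 mice at 20 months and 3 at 4.5 months, which lack the transgene, cover the same span. No mouse received a treatment. Each array held the RNA of 1 mouse, so the spread is that between mice. The transgene has no 3′ untranslated sequence, where both probe sets of Glud1 hybridize, so its expression could not be read here and the arrays do not check the genotype.

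Glutamate dehydrogenase interconverts glutamate and 2-oxoglutarate in mitochondria. Glutamate is packed into synaptic vesicles, released, sensed by AMPA, NMDA and kainate receptors that are held in the postsynaptic density, and taken up by astrocytes. The aging rodent hippocampus is known for activated microglia, complement and a thinning of synapses rather than for a large loss of neurons.

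All values are signals of the MAS5 algorithm as the authors deposited them, and levels per mouse are given as these signals, in arbitrary units. Tests used log2 signals after quantile normalization. Probe sets with signals above the array median on 3 or more arrays were tested, 26877 in all, for 12844 genes, each gene shown by its probe set with the highest mean. Changes are log2 fold changes, 20 over 4.5 months, ± SE from limma, and "rose" or "fell" means an adjusted p under 0.05 over all probe sets tested. Within each of the 2 Tg groups the arrays correlated at 0.966 to 0.976. Tissue identity could be checked against 11 tested markers of the hippocampus, whose summed signal ran from 30371 to 37467 at 20 months and from 50599 to 55464 at 4.5 months in Tg mice. These markers include Slc17a7, Camk2a and Nrgn, which are also synaptic genes, so the sum is no separate check of the tissue at 20 months. The choroid plexus marker Ttr had signals of 35784, 40686 and 18627 at 20 months and 6211, 37122 and 45021 at 4.5 months, so it differed between mice at both ages. Whether the amount of adjoining choroid plexus differed was not tested. As these are whole hippocampi, fewer cells of a type and less RNA per cell cannot be told apart.

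Control probe sets separated the ages as well, in both genotypes. The log2 signal of the 18S ribosomal RNA control was 8.99 to 9.36 in Tg mice at 20 months, against 6.49 to 6.96 at 4.5 months. Between these ages it was 9.93 to 11.69 at 9 months and 5.84 to 6.46 at 14.5 months, so that it was low at 4.5 and 14.5 months and high at 9 and 20 months. The log2 ratio of the 3′ to the 5′ probe set of beta-actin, a measure of how complete the labelled RNA is, followed the same course, with 0.35 to 0.43 at 4.5, 0.71 to 0.76 at 9, 0.32 to 0.39 at 14.5 and 0.51 to 0.54 at 20 months. The same ratio of Gapdh was -0.46 to -0.44 at 20 months and -0.05 to 0.02 at 4.5 months. In each of these 3 measures the 20-month Tg mice did not overlap the 4.5-month Tg mice (exact two-sided permutation test, p = 0.1, the smallest that 3 against 3 allow, 0.167 after adjustment over 10 measures). The same held for 3 of 4 spiked-in controls of labelling and hybridization, bioC, bioD and cre, all lower at 20 months, with log2 signals of cre of 14.65 to 14.81 at 20 months and 15.02 to 15.32 at 4.5 months. Age and these measures cannot be told apart in this comparison, and their part in the changes below was not tested.

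**Figure D1:**
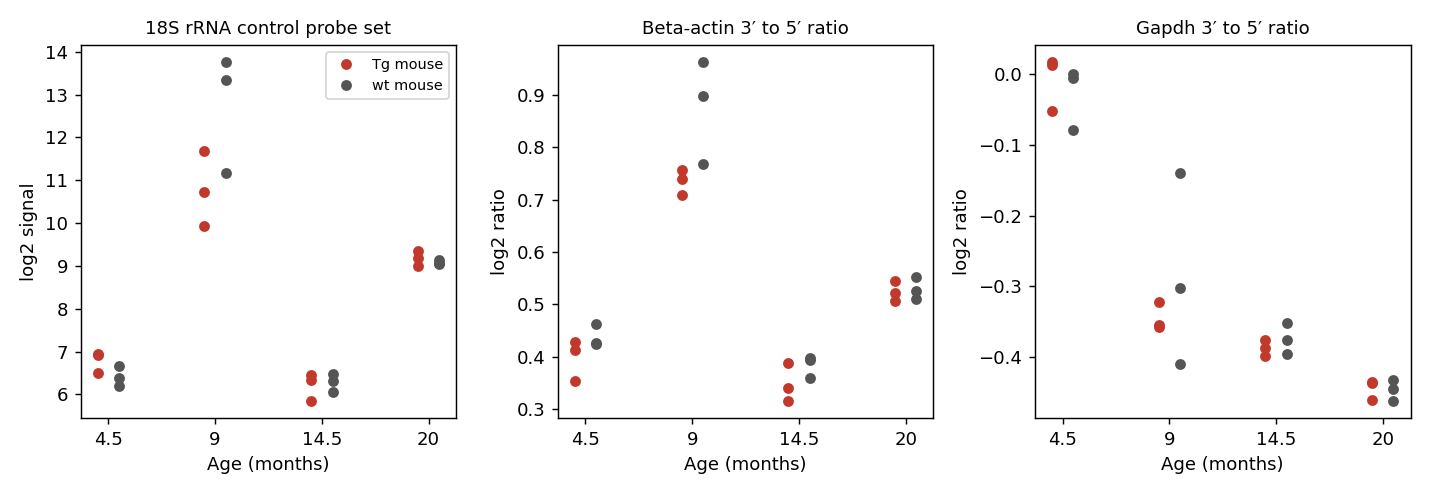
Control measures of each array by age in months, Tg mice in red and wt mice in grey, for the log2 signal of the 18S ribosomal RNA control and the log2 3′ to 5′ ratios of beta-actin and Gapdh. The 18S signal and the beta-actin ratio are low at 4.5 and 14.5 months and high at 9 and 20 months in both genotypes.

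Between 4.5 and 20 months, 6084 of 26877 probe sets passed the test in Tg mice (22.6%), of which 3032 were higher and 3052 lower at 20 months. At the level of genes 1554 rose (12.1% of 12844) and 1635 fell (12.7%), together 24.8%, and 9655 did not pass. Large changes were mostly falls, since 241 genes fell at least 2-fold and 70 rose at least 2-fold. The median change over all genes was 0.03. With the Gapdh ratio of each array as a covariate, 904 genes passed, 354 as rises and 550 as falls. That ratio separates the 2 ages without overlap, so the covariate also makes the age change less precise. A call lost with it therefore does not show that the change went away. Of the lost calls some kept their size, as Malat1 (1.45, and 1.61 with the covariate), and others shrank, as C1qb (0.67 and 0.08). In 5267 genes (41.0%) the 3 mice of one age lay wholly above or below the 3 of the other.

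**Figure D2:**
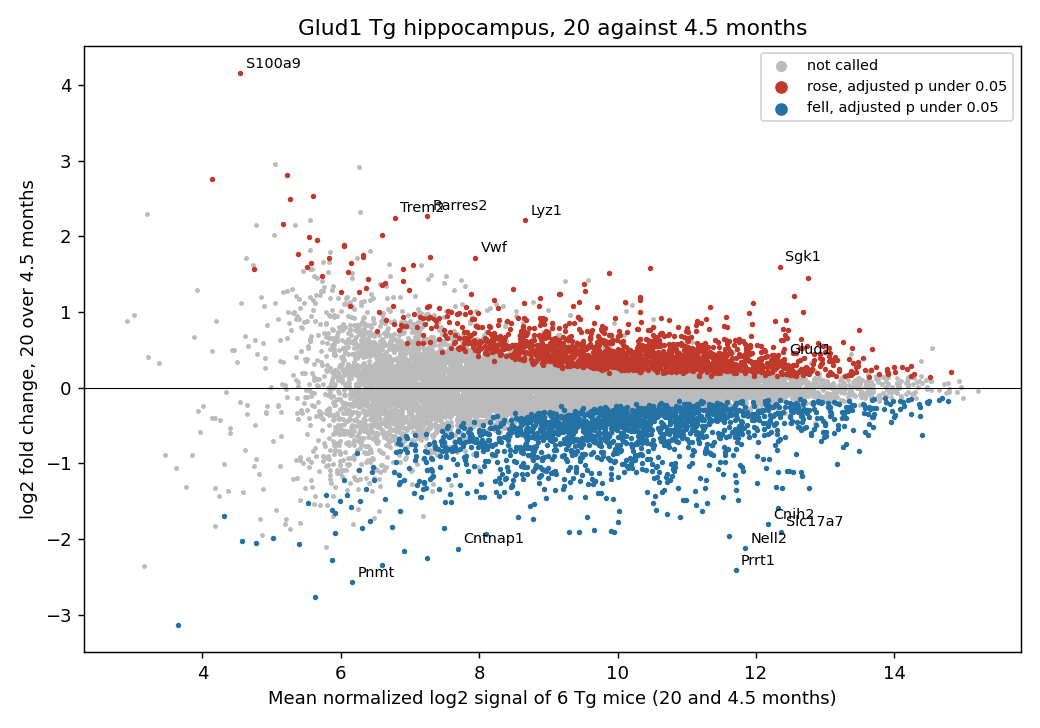
Change of each of 12844 genes at 20 over 4.5 months in Tg mice (log2 fold change) against its mean normalized log2 signal over the 6 mice. Red points are the 1554 genes that rose, blue points the 1635 that fell and grey points the 9655 that did not pass the test, and most red or blue points beyond 2-fold (1 log2 unit) lie below 0.

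The course over the 4 ages shows which of these changes went one way. Of the 1635 genes that fell, the means of 227 (13.9%) went down at every step of 4.5, 9, 14.5 and 20 months, while those of 1135 (69.4%) went down, up and down again. For 420 of these 1135 each of the 3 steps passed the test, beside 31.4%, 34.1% and 18.8% of all genes that passed at 9 over 4.5, 14.5 over 9 and 20 over 14.5 months. Of the 241 falls of at least 2-fold, 210 had the alternating course and 20 went down throughout. Of the 1554 genes that rose, 345 (22.2%) went up at every step and 863 (55.5%) went up, down and up, and among the 70 rises of at least 2-fold these counts were 32 and 18. Over all genes 54.6% alternated in one sense or the other. Neighbouring steps share the mice of the age between them, so that a low mean at 1 age alone already gives opposite signs on its 2 sides. The alternating course has the ages of the 18S signal, high where most fallen genes are low, and whether the 2 are linked was not tested.

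The 2 comparisons that share no arrays and join ages closer in 18S level, 14.5 over 4.5 months and 20 over 9 months, were added after the data had been seen. They are not matched in all controls. In Tg mice the Gapdh ratio was -0.40 to -0.38 at 14.5 months, against -0.05 to 0.02 at 4.5 months. At 9 months it was -0.36 to -0.32. The 18S signal and the beta-actin ratio of 20 months did not overlap those of 9 months. In the first 730 genes rose (5.68%) and 996 fell (7.75%), and in the second 1916 rose (14.9%) and 1323 fell (10.3%). The genes that rose in both numbered 195 (1.52% of 12844), which is 26.7% of the rises in the first and 10.2% of those in the second, and 296 fell in both (2.30%), or 29.7% and 22.4% of the falls. A further 153 genes passed in both with opposite signs. In wt mice, which share no array with these, 183 of the 195 were higher in both comparisons (93.8%, against 30.5% of all genes) and 289 of the 296 were lower in both (97.6%, against 28.2%). The control levels of the wt arrays also moved with age, with Gapdh ratios of -0.40 to -0.35 at 14.5 and -0.08 to 0.00 at 4.5 months. The agreement with wt mice therefore cannot tell age from these levels. Below, most gene groups are given with their counts in these 2 comparisons and with the Gapdh ratio as a covariate beside the main ones. The shares over all genes to set beside these counts are 12.1% rises and 12.7% falls at 20 over 4.5 months. They are 5.68% and 7.75% at 14.5 over 4.5 months and 14.9% and 10.3% at 20 over 9 months. With the Gapdh covariate 354 of 12844 genes rose and 550 fell.

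Genes of vesicle release, glutamate receptors and the postsynaptic density passed the test mostly as falls, while over all genes 12.7% fell and 12.1% rose. Of 46 tested genes of synaptic vesicles and transmitter release 16 fell and 0 rose, of 29 genes of glutamate receptors and their partners 13 fell and 0 rose, and of 31 genes of the postsynaptic density 13 fell and 1 rose, with medians of -0.11, -0.29 and -0.26. At 14.5 over 4.5 months 13, 4 and 8 of these genes fell and 3, 0 and 2 rose, and at 20 over 9 months 11, 5 and 11 fell and 9, 4 and 5 rose. With the Gapdh covariate 7, 6 and 9 fell. Of the 11 hippocampal markers 6 fell and 0 rose, 3 of them the synaptic genes Slc17a7, Camk2a and Nrgn already counted, and of 22 markers of CA pyramidal cells 5 fell and 0 rose, of which 0 fell with the Gapdh covariate. Of 15 dentate granule cell markers 1 rose and 0 fell, and of 21 interneuron markers 2 rose and 1 fell.

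Slc17a7 encodes the vesicular glutamate transporter VGLUT1, which loads glutamate into vesicles. Its signal was 2751, 2461 and 3002 in the 3 Tg mice at 20 months and 10451, 8786 and 9814 at 4.5 months. The change was -1.90 ± 0.10 (adjusted p = 2.7e-14 in limma). Slc17a7 is one of the largest falls, which were named only where the 2 ages did not overlap. The mice of 14.5 months (7938, 7641 and 8620) stood close to the young ones, with a change of -0.11 over 4.5 months (adjusted p = 0.543), whereas 20 over 9 months gave -1.18 (adjusted p = 1.71e-09). Rph3a, a Rab3 effector on vesicles, changed by -1.04 ± 0.07, Syn1, which tethers vesicles to actin, by -0.71 ± 0.07, and Sv2a, a vesicle membrane protein, by -0.64 ± 0.06, and all 3 had the alternating course. Slc17a6, the VGLUT2 transporter, had 0.67 ± 0.31 (adjusted p = 0.135), while its other probe set, with the lower mean, rose by 1.17 ± 0.40 (adjusted p = 0.0345).

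Among receptor genes the largest falls were in auxiliary subunits. Prrt1, an AMPA receptor partner also known as SynDIG4, had 1523, 1331 and 1490 at 20 months and 8686, 6046 and 7717 at 4.5 months, a change of -2.41 ± 0.12, while its other probe set had -0.70 and did not pass (adjusted p = 0.213). Its 9-month mice (1909, 1409 and 1909) lay as low as the 20-month mice and its 14.5-month mice (4885, 5036 and 5564) lay between, with -0.48 at 14.5 over 4.5 months and -0.29 at 20 over 9 months (adjusted p = 0.069). Cnih2, which slows the closing of AMPA receptors, had 2277, 2253 and 2979 at 20 months and 8493, 7315 and 9199 at 4.5 months. Its change of -1.80 ± 0.11 stood beside -0.41 at 14.5 over 4.5 months and -1.18 at 20 over 9 months, and each of the 3 passed the test. Grin2b, an NMDA receptor subunit, had 1153, 1220 and 1322 at 20 months and 2670, 2333 and 2677 at 4.5 months (-1.07 ± 0.13), but 20 over 9 months gave 0.04, and its other 2 probe sets had -0.12 and -0.10 and did not pass. Grik5, a kainate receptor subunit, changed by -1.18 ± 0.11.

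In the postsynaptic density 7 genes fell at 14.5 over 4.5 and at 20 over 9 months, namely Dlgap4, Shank3, Camk2a, Nrgn, Iqsec2, Nlgn2 and Nrxn2. Camk2a, the alpha subunit of the calcium and calmodulin kinase that potentiation needs, had 7477, 8367 and 10777 at 20 months and 14751, 13796 and 15853 at 4.5 months. The change was -0.84 ± 0.15, with -0.68 and -0.98 in the 2 added comparisons, and 3 more of its probe sets passed with the same sign while 1 had 0.19 and did not. Shank3, a master scaffold of the density, had 2457, 2166 and 2771 at 20 months and 5255, 5123 and 5018 at 4.5 months. It changed by -1.10 ± 0.08, by -0.45 at 14.5 over 4.5 and by -0.58 at 20 over 9 months. Nrgn, a calmodulin-binding protein of dendritic spines, changed by -1.16 ± 0.12, and Nlgn2 and Nrxn2, adhesion molecules that face each other across the synapse, by -0.98 ± 0.07 and -1.19 ± 0.08. Of 16 genes of GABA signalling 2 rose and 3 fell, with 2 rises and 1 fall at 14.5 over 4.5 months, 6 rises and 1 fall at 20 over 9 months, and 1 rise and 0 falls with the Gapdh covariate. Abat, the enzyme that breaks down GABA, had 3345, 3514 and 3243 at 20 months and 2158, 2136 and 2174 at 4.5 months (0.63 ± 0.07), while Gabra5, a subunit of extrasynaptic GABA receptors in the hippocampus, changed by -0.47 ± 0.09.

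**Figure D3:**
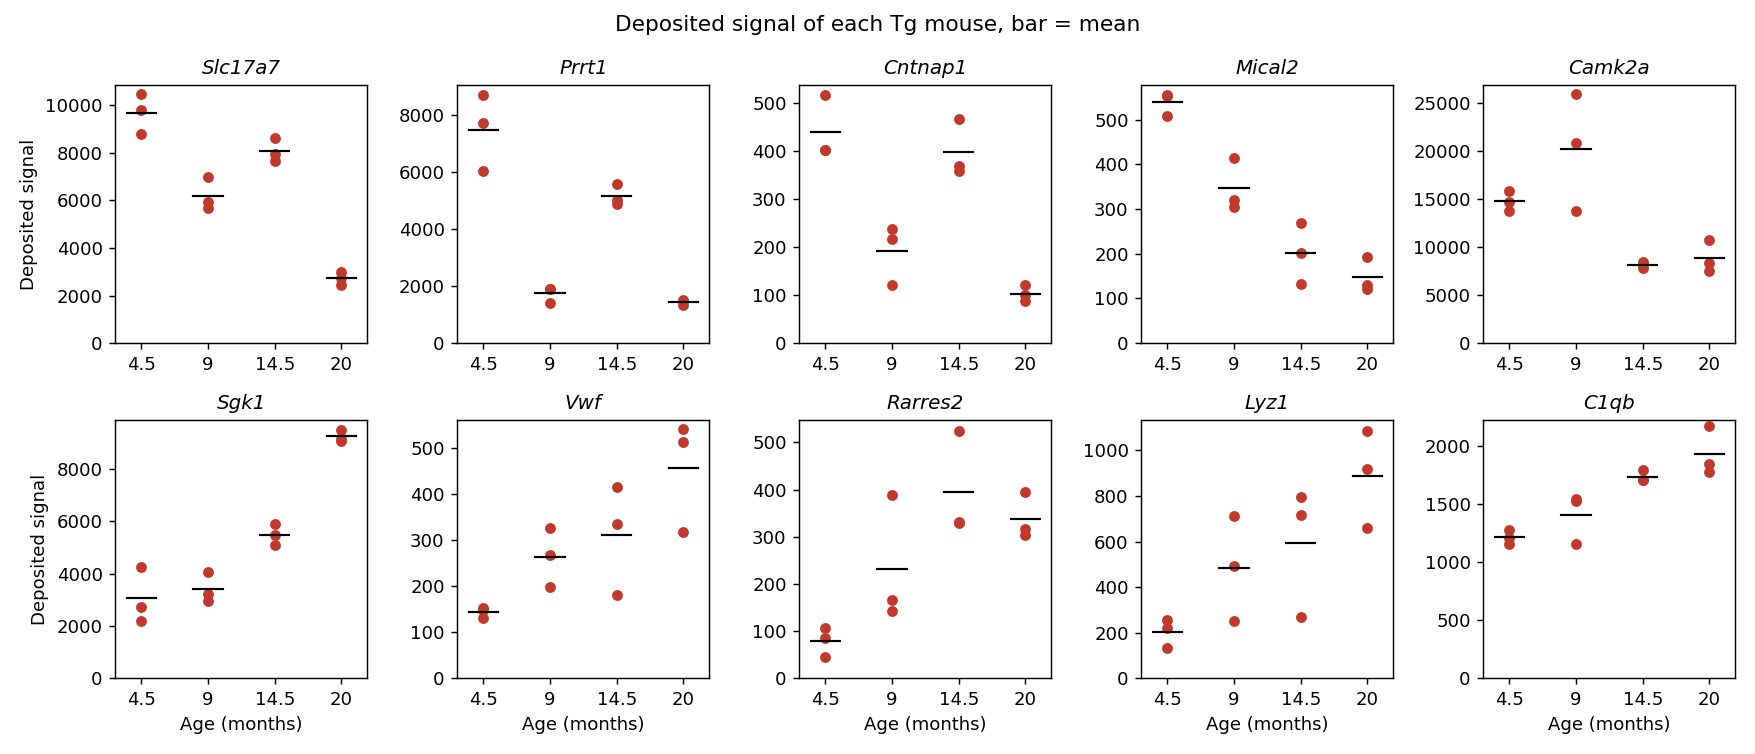
Deposited signal of each Tg mouse (points) and the mean (bar) at 4.5, 9, 14.5 and 20 months for 10 genes. Slc17a7, Prrt1 and Cntnap1 go down, up and down over the ages, Mical2 goes down throughout, and Sgk1, Vwf, Lyz1 and C1qb go up throughout.

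Among genes of the axon, the dendrite and the nerve cell membrane most did not pass, and those that did were more often lower at 20 months. Of 23 sodium and calcium channel genes 9 fell and 1 rose, of 36 potassium channel genes 7 fell and 4 rose, of 27 cytoskeletal genes 10 fell and 3 rose, of 30 genes of axonal transport 12 fell and 2 rose, and of 39 genes of axon guidance and adhesion 12 fell and 1 rose. Over all genes 12.7% fell and 12.1% rose, and the potassium channel list, with 19.4% and 11.1%, was the nearest of these lists to that. The medians of the lists, in the order given, were -0.20, -0.01, -0.02, -0.12 and -0.11. At 14.5 over 4.5 months 3, 4, 5, 6 and 6 of them fell and 0, 0, 4, 4 and 0 rose, and at 20 over 9 months 5, 5, 11, 11 and 5 fell and 1, 0, 6, 2 and 4 rose, so that the cytoskeletal and adhesion genes were mixed there. With the Gapdh covariate 0, 4, 5, 2 and 4 fell. Tubb4a, a neuronal and oligodendroglial tubulin, had 4432, 4078 and 4570 at 20 months and 10491, 10607 and 10318 at 4.5 months, a change of -1.32 ± 0.07. Its intermediate ages lay between, from 7674 to 8736 at 14.5 and from 8284 to 9393 at 9 months. Map1a, a microtubule-associated protein of dendrites, changed by -1.12 ± 0.08, Kif1a, the kinesin that carries synaptic vesicle precursors, by -0.66 ± 0.07, and Mapk8ip3, a cargo adaptor of kinesin, by -0.86 ± 0.09. Kcnc1, a potassium channel of fast-firing neurons, changed by -1.25 ± 0.12, with -0.22 and -0.15 in 2 probe sets that did not pass, and Cacnb1, a calcium channel subunit, by -1.03 ± 0.13. A contrary case was Dync1li1, a light intermediate chain of dynein, which rose by 0.84 ± 0.11.

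At the node of Ranvier and the paranode, where myelin ends and the axon is bared, 4 of 18 genes fell and 1 rose, with 6 falls and 1 rise in each of the added comparisons and 2 falls with the Gapdh covariate. Cntnap1, which joins the axon to the paranodal loops, had 99.3, 88.7 and 122 at 20 months and 402, 516 and 401 at 4.5 months. Its change was -2.12 ± 0.24, with -0.20 at 14.5 over 4.5 months (adjusted p = 0.643) and -0.73 at 20 over 9 months. Nfasc, the anchor of the node, and Sptbn4, a spectrin beneath its membrane, went down at every step and changed by -1.11 ± 0.12 and -1.03 ± 0.10. Of Nfasc 2 more probe sets had -0.13 and -0.15 and did not pass. In the extracellular matrix 4 of 20 genes fell and 0 rose, with 3 falls and 2 rises at 14.5 over 4.5 months, 3 falls and 1 rise at 20 over 9 months, and 2 falls with the Gapdh covariate. Among them was Ncan, a proteoglycan of perineuronal nets, with 1999, 1956 and 1863 at 20 months and 4123, 3737 and 4203 at 4.5 months. Ncan changed by -1.07 ± 0.19, by -0.60 at 14.5 over 4.5 months and by -0.74 at 20 over 9 months, but its other 2 probe sets had -0.45 and -0.28 and did not pass.

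Of the 15 large falls named by rule, Mical2 and Mpp2 went down at every step. Mical2 encodes an enzyme that oxidizes and takes apart actin filaments. Its signal was 130, 120 and 194 at 20 months, against 556, 553 and 507 at 4.5 months. The 9-month mice had 414, 304 and 320 and the 14.5-month mice 269, 132 and 202. That the 20-month and 4.5-month mice do not overlap was part of the rule that named these falls. The change was -1.93 ± 0.25, with -1.49 at 14.5 over 4.5 and -1.23 at 20 over 9 months. A second, dimmer probe set of Mical2 had -0.36 and did not pass (adjusted p = 0.499). Nell2, a secreted neuronal glycoprotein, had 1749, 1678 and 1877 at 20 months and 7081, 7296 and 7794 at 4.5 months (-2.12 ± 0.09), and C1ql1, a secreted synaptic organizer that is also an oligodendrocyte precursor marker, had 87.9, 92.5 and 114 at 20 months and 367, 405 and 281 at 4.5 months (-1.85 ± 0.18). Both fell in the added comparisons, by 0.56 and 0.55 at 14.5 over 4.5 months and by 0.95 and 0.94 at 20 over 9 months. The other large falls by rule were Zbtb7b, Pmf1, Gas7, Mpp2, Pianp, Scaf1, Polr2a and Atn1, between -2.25 and -1.87. A second probe set of Zbtb7b (0.58) and 1 of Gas7 (0.03) had the opposite sign and did not pass. Of the remaining probe sets of Gas7, 1 fell by -0.65 and 1 had -1.23 and did not pass (adjusted p = 0.0898). Of these genes, Polr2a, the large subunit of RNA polymerase II, had -0.01 at 20 over 9 months.

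**Figure D4:**
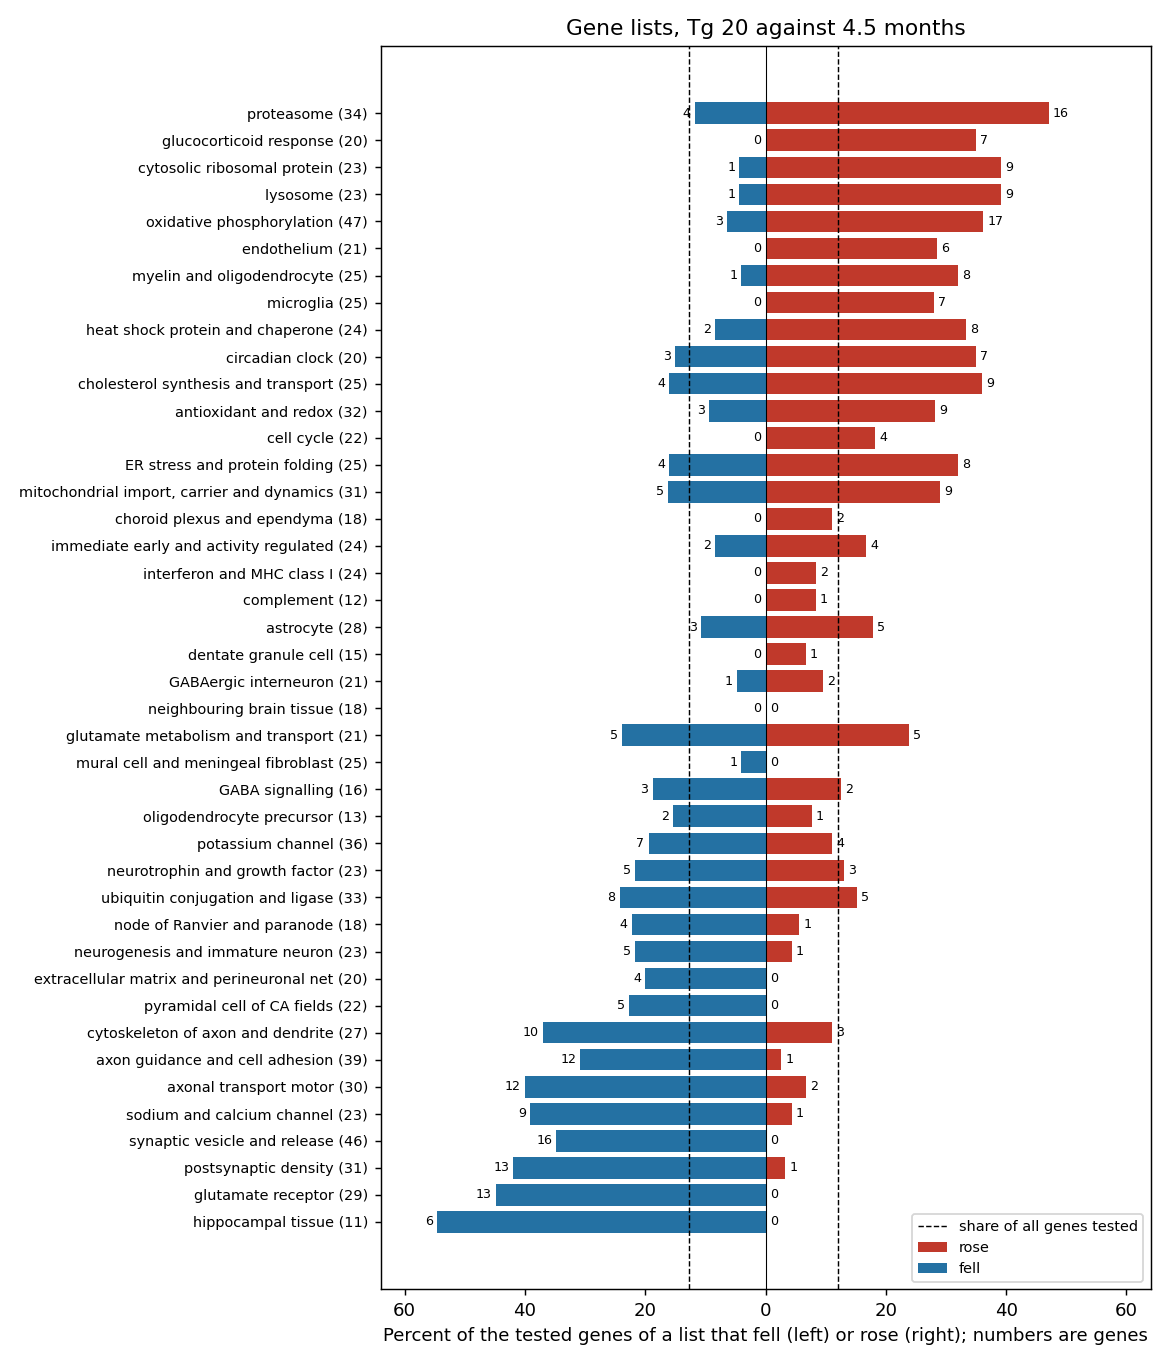
Percent of the tested genes of each list that rose (right, red) or fell (left, blue) at 20 over 4.5 months in Tg mice, with the number of genes beside each bar and the list size in brackets. Broken lines mark the shares over all 12844 genes, 12.1% for rises and 12.7% for falls, and the lists of synapse, channel, transport and adhesion genes lie at the falling end.

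Microglial and lysosomal genes that passed the test were nearly all higher at 20 months, although most did not pass. Of 25 tested microglial genes 7 rose and 0 fell (median 0.25), and of 23 lysosomal genes 9 rose and 1 fell (median 0.26), beside 12.1% of all genes that rose. At 14.5 over 4.5 months 3 and 3 of these genes rose and 1 and 0 fell, and at 20 over 9 months 7 and 7 rose and 0 and 0 fell. With the Gapdh covariate 1 and 1 rose. Trem2, a lipid receptor of microglia, had 220, 240 and 273 at 20 months and 36.3, 57.5 and 75.8 at 4.5 months (2.25 ± 0.55, adjusted p = 0.00343). The 9-month mice already had 225, 201 and 322, and 20 over 9 months gave 0.08. Lyz1, the gene of lysozyme, had 1086, 659 and 917 at 20 months and 219, 254 and 133 at 4.5 months (2.21 ± 0.46), and its means went up at each step. Lyz1 is read by a probe set that may also bind its near copy Lyz2.

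Fcgr3, an Fc receptor, had 528, 537 and 499 at 20 months and 297, 316 and 308 at 4.5 months (0.80 ± 0.13), and Laptm5, a lysosomal membrane protein of immune cells, had 960, 926 and 949 at 20 months and 485, 512 and 505 at 4.5 months (0.93 ± 0.13). The other 4 probe sets of Laptm5 did not pass, 3 of them with negative values. The mice of the 2 ages did not overlap in either gene. Of 12 complement genes 1 rose, C1qb, a chain of the first complement component. It had 1775, 1849 and 2176 at 20 months and 1213, 1280 and 1158 at 4.5 months (0.67 ± 0.14), with 0.50 and 0.42 in the added comparisons, and both of its other probe sets rose. C1qa had 0.21 ± 0.09 (adjusted p = 0.0915). Of 24 interferon and class I antigen genes 2 rose, Ifit3 (0.89 ± 0.23) and H2-D1 (0.55 ± 0.16), and of 5 class II genes 0 passed. The shares of rises in the complement and interferon lists, 8.33% each, were below the 12.1% of all genes. At 14.5 over 4.5 months 1 complement gene and 3 interferon genes rose and 0 and 0 fell, at 20 over 9 months 4 and 5 rose and 1 and 0 fell, and with the Gapdh covariate 0 and 0 rose. The call of H2-D1 was lost without either of 2 mice. The calprotectin subunit S100a9, a marker of neutrophils, had signals of 133, 96.4 and 84.5 at 20 months and 7.66, 8.46 and 3.69 at 4.5 months (adjusted p = 0.00678). Those of 4.5 months are under the lower quartile of their arrays (31.8 to 39.3), so no fold is given, and with the Gapdh covariate the sign turned to negative. Of the other 5 blood cell genes tested, 0 passed.

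Lgals3, galectin-3, which phagocytic microglia secrete, rose in both added comparisons, 2.66 ± 0.83 at 14.5 over 4.5 months (adjusted p = 0.029 in limma) and 2.37 ± 0.83 at 20 over 9 months (adjusted p = 0.0355). It was picked after its values were seen, and its rise at 20 over 4.5 months (2.53, adjusted p = 0.0272) was lost without any 1 of 4 mice.

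Endothelial and glucocorticoid response genes that passed the test were all higher at 20 months, while over all genes 12.1% rose and 12.7% fell. Of 21 endothelial genes 6 rose and 0 fell (median 0.22), with 4 rises and 1 fall at 14.5 over 4.5 months 9 rises and 0 falls at 20 over 9 months, and 1 rise with the Gapdh covariate. Vwf, von Willebrand factor, had 540, 514 and 317 at 20 months and 153, 148 and 132 at 4.5 months (1.72 ± 0.32), and its means went up at every step. Slc2a1, the glucose transporter of the blood-brain barrier, had 3802, 3977 and 4379 at 20 months and 2259, 2530 and 2148 at 4.5 months (0.80 ± 0.11), and Slc16a1, a lactate and ketone transporter, had 2426, 2375 and 2204 at 20 months and 1299, 1317 and 1192 at 4.5 months (0.89 ± 0.13). All 3 also rose in both added comparisons. The summed signal of the endothelial list was 29123 to 31457 at 20 months and 22248 to 24209 at 4.5 months. Of 25 genes of mural cells and meningeal fibroblasts 0 rose and 1 fell.

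Of 20 glucocorticoid response genes 7 rose and 0 fell, with 3 rises and 3 falls at 14.5 over 4.5 months, 11 rises and 1 fall at 20 over 9 months, and 3 rises with the Gapdh covariate. Sgk1, a kinase gene that glucocorticoids induce, had 9510, 9077 and 9157 at 20 months and 2724, 4262 and 2203 at 4.5 months. The change was 1.60 ± 0.19, with 0.98 at 14.5 over 4.5 and 1.38 at 20 over 9 months. Sgk1 is one of the largest rises, which were named only where the ages did not overlap. Tsc22d3, which encodes the glucocorticoid-induced leucine zipper, had 2637, 3100 and 3261 at 20 months and 1753, 1762 and 1512 at 4.5 months (0.83 ± 0.10), with 0.52 and 1.27 in the added comparisons and 1.22 and 0.06 in 2 other probe sets, of which the second did not pass. Mt1 and Mt2, metallothioneins that this list shares with the redox list, changed by 0.60 ± 0.15 and 0.70 ± 0.19. Txnip, an inhibitor of thioredoxin, changed by 1.28 ± 0.22.

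Genes of oxidative phosphorylation, the proteasome, the cytosolic ribosome and chaperones passed the test more often as rises than as falls. Rises numbered 17 of 47 genes of oxidative phosphorylation, 16 of 34 proteasome genes, 9 of 23 cytosolic ribosomal protein genes and 8 of 24 heat shock and chaperone genes, against 3, 4, 1 and 2 falls. At 20 over 9 months the counts of rises and falls were 7 and 3, 5 and 5, 3 and 6, and 5 and 1, and at 14.5 over 4.5 months they were 12 and 1, 7 and 2, 5 and 3, and 3 and 1. With the Gapdh covariate 10, 7, 3 and 1 rose. Neighbouring lists were mixed, as 9 of 31 genes of mitochondrial import, carriers and dynamics rose and 5 fell, and 5 of 33 genes of ubiquitin conjugation and ligation rose and 8 fell. Cox8a, a subunit of cytochrome c oxidase, had 8908, 8986 and 10804 at 20 months and 4604, 4582 and 4522 at 4.5 months (1.00 ± 0.07). It was as high at 9 months (11542, 11130 and 9772), and 20 over 9 months gave -0.11. Psmc1, an ATPase of the proteasome, changed by 0.51 ± 0.06 and Rps9, of the small ribosomal subunit, by 0.88 ± 0.09, with -0.06 and -0.10 at 20 over 9 months. These differences were thus present by 9 months, the age by which the Gapdh ratio and the 18S signal also moved. At 14.5 over 4.5 months Cox8a, Psmc1 and Rps9 gave 1.02, 0.32 and 0.79, and each passed. At 14.5 months the 18S signal was low again, while the Gapdh ratio was -0.40 to -0.38. A link to either control was not tested. Sdhc, a subunit of complex II, went the other way, at -0.83 ± 0.10.

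In sterol metabolism 9 of 25 genes rose and 4 fell, with 2 rises and 0 falls at 14.5 over 4.5 months, 6 rises and 4 falls at 20 over 9 months, and 3 rises and 1 fall with the Gapdh covariate. Fdps, which makes farnesyl diphosphate, had 2007, 2231 and 2256 at 20 months and 1054, 1123 and 1295 at 4.5 months (0.92 ± 0.09), while Cyp46a1, the enzyme that clears brain cholesterol, had 1969, 2131 and 1698 at 20 months and 3778, 3187 and 3613 at 4.5 months (-0.88 ± 0.10). Fdps gave 0.11 at 20 over 9 months and Cyp46a1 gave -0.56.

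Glial genes were mixed. Of 28 astrocyte genes 5 rose and 3 fell, or 17.9% and 10.7%, near the 12.1% and 12.7% of all genes. There were 4 rises and 1 fall at 14.5 over 4.5 months and 8 rises and 2 falls at 20 over 9 months. Gfap, the intermediate filament of astrocytes, had 2444, 2646 and 2304 at 20 months and 5091, 4566 and 5035 at 4.5 months, a change of -1.02 ± 0.10, but its probe sets disagree. A second one changed by -0.92 and the remaining one by 0.65 ± 0.18 (adjusted p = 0.00761), and no direction is drawn for Gfap here. Gjb6, the astrocyte gap junction protein connexin 30, changed by 0.75 ± 0.13. Of 25 myelin and oligodendrocyte genes 8 rose and 1 fell, 0 of which passed at 14.5 over 4.5 months, and 3 rose and 2 fell at 20 over 9 months. With the Gapdh covariate 1 rose. Apod, apolipoprotein D of mature oligodendrocytes, had 9372, 9664 and 9039 at 20 months and 3754, 4160 and 3826 at 4.5 months (1.21 ± 0.27). Of 23 genes of neurogenesis and immature neurons 1 rose and 5 fell, with 2 rises and 3 falls at 14.5 over 4.5 months and 1 rise and 3 falls at 20 over 9 months, and 1 fell with the Gapdh covariate. The falls included Neurod1 (-0.39 ± 0.11) and Dpysl5 (-1.01 ± 0.22), and that of Neurod1 was lost without any 1 of 3 mice. Of 22 cell cycle genes 4 rose and 0 fell, but the median was -0.10 and only 8 of the 22 changes were positive. There were 2 rises and 1 fall at 14.5 over 4.5 months, 5 rises and 2 falls at 20 over 9 months, and 2 rises with the Gapdh covariate. Among the 4 that rose at 20 over 4.5 months were 2 subunits of the replicative helicase, Mcm4 (0.92 ± 0.19) and Mcm5 (0.82 ± 0.21). For Mcm5 the 20-month mice had 134, 211 and 164 and the 4.5-month mice 98.2, 103 and 99.7, and a second probe set of Mcm5 gave -0.00.

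Of 18 choroid plexus and ependymal genes 2 rose, Rarres2 and Tmem212, or 11.1% beside 12.1% of all genes. There were 2 rises at 14.5 over 4.5 months, 1 at 20 over 9 months and 0 with the Gapdh covariate. Rarres2, the chemerin precursor, had 304, 316 and 394 at 20 months and 85.6, 106 and 44.9 at 4.5 months (2.27 ± 0.31). The summed signal of the list was 21844 to 53651 at 20 months and 7984 to 53864 at 4.5 months, and the part of adjoining choroid plexus in these rises was not tested. Tmem212, a gene of ciliated cells, changed by 1.73 ± 0.40 and was at 298, 255 and 319 at 20 months and at 77.7, 155 and 63.7 at 4.5 months. Other large rises by rule were Ptgis (1.62), Zic1 (1.59), Polr3k (1.52), Malat1 (1.45), Otub1 (1.37), A2m (1.24), Zfp777 (1.24) and Smco3. The calls of Ptgis, Zic1 and A2m, and that of Pmf1 among the falls, were lost when single mice were left out. Malat1, a nuclear long non-coding RNA, had signals of 3904 to 4444 at 4.5, 31499 to 34400 at 9, 1847 to 3814 at 14.5 and 10211 to 12816 at 20 months. The 4 ages of Malat1 have the same order as those of the 18S signal.

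Glutamate metabolism itself was split, 5 of 21 genes rising and 5 falling, with 3 rises and 2 falls at 14.5 over 4.5 months, 4 rises and 1 fall at 20 over 9 months, and 2 rises and 3 falls with the Gapdh covariate. The native Glud1 transcript had 6023, 6164 and 6503 at 20 months and 5131, 4361 and 4570 at 4.5 months (0.37 ± 0.07, adjusted p = 0.000164), with 0.05 and 0.18 in the added comparisons, neither of which passed. The second probe set of Glud1 had 0.23 and did not pass (adjusted p = 0.0534). In wt mice the change of Glud1 was 0.20 (adjusted p = 0.029), and the difference between the genotypes did not pass (unadjusted p = 0.0917). Slc25a22, a mitochondrial glutamate carrier, changed by -0.60 ± 0.07, Aldh18a1, which turns glutamate toward proline, by -0.50 ± 0.08, and Oat, ornithine aminotransferase, by 0.54 ± 0.10.

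Whether aging differed in Tg mice was asked by testing the difference of the 2 changes. In wt mice 7626 probe sets (28.4%) passed over the same span, and 4009 genes (31.2%, 15.8% as rises and 15.4% as falls). The 2 changes share no arrays and correlated at 0.714 (Pearson) over the 12844 genes, which share the ages' control levels. Of the 3189 genes called in Tg mice, 98.2% had the same sign in wt mice and 77.3% were also called there, which is 61.5% of the wt calls, and 1 gene was called with opposite signs. The difference itself passed for 2 of 26877 probe sets (0.00744%), 1 for Pnmt and 1 for Dbp, while 1639 had an unadjusted p under 0.05, against 1344 by chance. Over the processing alternatives and with each of the 6 Tg mice left out, this count of 2 ranged between 0 and 5. Between Tg and wt mice, 0 probe sets passed at 4.5 months (1601 at an unadjusted p under 0.05) and 7 passed at 20 months (0.026%), namely Pnmt, Ciart, Egr1, Sema6c, both of Dbp and 1 that is listed for several genes or none.

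**Figure D5:**
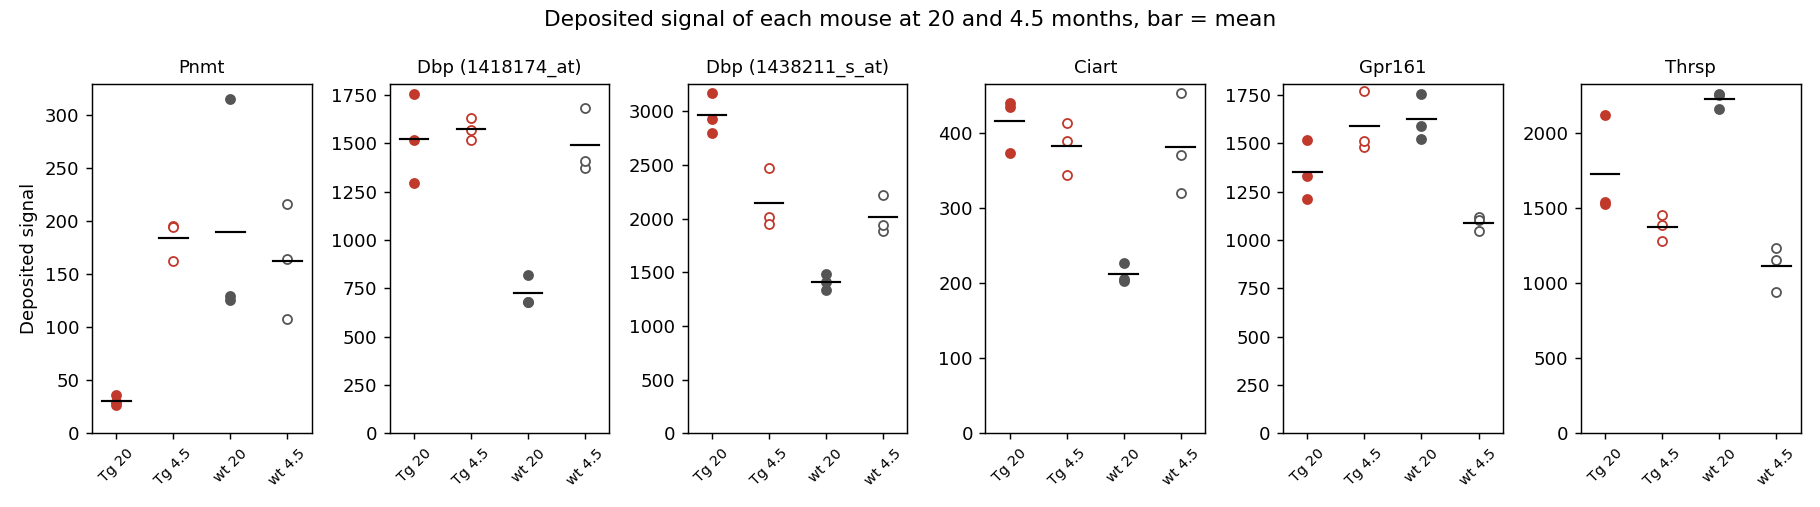
Deposited signal of each mouse (points) and the mean (bar) at 20 and 4.5 months, Tg in red and wt in grey, filled at 20 months and open at 4.5 months, for the 5 genes with the smallest p for the difference of the 2 changes, with a panel for each of the 2 probe sets of Dbp. Pnmt is low in the 3 Tg mice of 20 months, and Dbp and Ciart are low in the 3 wt mice of 20 months.

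Pnmt, the enzyme that turns noradrenaline into adrenaline, had 36.1, 26.4 and 29.4 in Tg mice at 20 months and 195, 195 and 163 in Tg mice at 4.5 months, a change of -2.57 ± 0.32 (adjusted p = 3.58e-07). In wt mice it had 126, 316 and 130 at 20 months and 108, 164 and 216 at 4.5 months, a change of 0.24 ± 0.32. The difference of the changes was -2.81 ± 0.45 (adjusted p = 0.0199). The low mice are thus the 3 aged Tg mice alone among these 12, at signals near or below the lower quartile of their arrays (32.3 to 34.9), and in Tg mice 14.5 over 4.5 months gave 0.07.

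Dbp, a transcription factor at the output of the circadian clock, is read by 2 probe sets. The first had 1516, 1754 and 1294 in Tg mice at 20 months and 1569, 1630 and 1516 at 4.5 months, and 678, 821 and 678 in wt mice at 20 months and 1373, 1411 and 1683 at 4.5 months. The Tg change was -0.05 ± 0.12, the wt change -1.03 ± 0.12 and their difference 0.97 ± 0.17 (adjusted p = 0.0378). The second, with the higher mean, changed by 0.46 ± 0.13 in Tg mice and by -0.52 ± 0.13 in wt mice, a difference of 0.98 ± 0.19 that did not pass (adjusted p = 0.116). In both probe sets the aged wt mice were the lowest of the 4 groups. The labels do not give the hour of death of the mice. Its part in the values of Dbp and of the other clock genes below was not tested.

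Of the other 3 genes with the smallest p for the difference, 0 passed. Ciart, a repressor in the clock, had 434, 439 and 372 in Tg mice at 20 months and 413, 389 and 344 at 4.5 months, against 203, 226 and 206 in wt mice at 20 months and 320, 370 and 453 at 4.5 months, a difference of 0.93 ± 0.21 (adjusted p = 0.47). Gpr161, a receptor of the primary cilium, had a difference of -0.81 ± 0.15 (adjusted p = 0.085), and Thrsp, a lipogenic nuclear protein, of -0.71 ± 0.16 (adjusted p = 0.411). Of 20 tested clock genes, 7 rose and 3 fell in Tg mice and 5 rose and 6 fell in wt mice. In Tg mice 2 rose and 2 fell at 14.5 over 4.5 months, 8 rose and 3 fell at 20 over 9 months, and 1 rose and 0 fell with the Gapdh covariate. Of the 20, 2 had an unadjusted p under 0.05 for the difference, Dbp and Ciart.

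Clock activators bind the E-box CACGTG. The promoter window of Ciart is shown because it holds 3 of them, in capitals, 116, 58 and 44 bases before the start of the gene (GRCm38.p6, chr3:95882179-95882478, minus strand, RefSeq, 5′ to 3′).
Ciart: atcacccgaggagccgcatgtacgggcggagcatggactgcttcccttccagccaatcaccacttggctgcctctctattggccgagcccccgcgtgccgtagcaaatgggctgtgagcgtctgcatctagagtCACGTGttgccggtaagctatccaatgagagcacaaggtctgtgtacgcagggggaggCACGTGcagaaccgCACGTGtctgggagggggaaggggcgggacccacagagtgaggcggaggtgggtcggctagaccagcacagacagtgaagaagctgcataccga
The E-box, which reads the same on both strands, is in 7.15% of 32817 such windows, 250 bases before to 50 after a start, and 0.0884% hold at least 3. The window of Dbp holds 0. A match is a run of letters and does not show binding.

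Immediate early genes, which neurons switch on within minutes of firing, showed the most differences at an unadjusted threshold. Of 24 tested genes of this list 12 had an unadjusted p under 0.05 for the difference, 10 of them with the higher change in Tg mice, beside 6.51% of all genes, and 0 passed after adjustment. In Tg mice 4 rose and 2 fell, with 0 rises and 4 falls at 14.5 over 4.5 months, 6 rises and 2 falls at 20 over 9 months, and 1 rise and 1 fall with the Gapdh covariate. The 4 were Egr2, Btg2, Dusp1 and Fosl2. The call was lost for Dusp1 without any 1 of 4 mice, with no filter or in a fit of the 6 Tg arrays alone, for Egr2 without any 1 of 3 mice and for Fosl2 without 1 mouse. Egr2, a zinc finger factor, had 212, 161 and 272 in Tg mice at 20 months and 141, 65.4 and 45.7 at 4.5 months (1.57 in Tg and -0.68 in wt mice). Btg2, an antiproliferative factor, had 620, 466 and 578 at 20 months and 337, 444 and 320 at 4.5 months (0.63 ± 0.17, with -0.26 in a second probe set that did not pass), and Dusp1, a phosphatase of MAP kinases, had 1616, 1317 and 1139 at 20 months and 1185, 680.0 and 648 at 4.5 months (0.75 in Tg and -0.09 in wt mice). In Egr2 and Btg2 the 2 ages of Tg mice did not overlap, and in Dusp1 they did. Fos had 1.10 in Tg mice (adjusted p = 0.132) and -0.45 in wt mice, and Npas4, induced by calcium entry, had 0.99 (adjusted p = 0.107) and -0.35. The fallers were Jund (-1.10 ± 0.14) and Nptx2 (-1.26 ± 0.26), both of which also fell in wt mice. In another list, endoplasmic reticulum stress and protein folding, 9 of 25 genes had an unadjusted p under 0.05 for the difference. The median difference of that list was -0.27, and 0 passed after adjustment. Of its genes 8 rose and 4 fell in Tg mice, and 13 rose and 2 fell in wt mice.

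Btg2 and Dusp1 are shown because their promoters hold a full cyclic AMP response element, TGACGTCA, the site of the activity-dependent factor CREB, in capitals (GRCm38.p6, RefSeq, both on the minus strand, 5′ to 3′, Btg2 at chr1:134079276-134079355 and Dusp1 at chr17:26508568-26508647).
Btg2: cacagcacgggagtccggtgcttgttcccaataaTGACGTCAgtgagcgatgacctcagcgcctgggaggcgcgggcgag
Dusp1: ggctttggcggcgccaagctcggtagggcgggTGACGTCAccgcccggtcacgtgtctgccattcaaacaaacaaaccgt
The element begins 166 bases before the start in Btg2 and 143 in Dusp1 and is in 1.79% of the 32817 windows. The 5 windows of Egr2, which also rose, hold 0 full elements, and Fosl2 was not looked up. The windows of Fos, Npas4, Nr4a1 and Junb in the same table hold 0 full elements as well. This says only that these letters are not in them.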

How the data were processed

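The authors hybridized hippocampal RNA to Mouse Genome 430 2.0 arrays, 1 mouse per array. The series holds 31 arrays, 4 of them of wt mice at 10 days, while the paper gives 3 Tg and 3 wt mice for each age. The deposited intensity values are linear signals of MAS5, whose settings are not given in the sources used here. Signals were turned to log2, quantile normalized over the 31 arrays and filtered, and limma 3.58.1 in R 4.3.3 fitted a mean for each of 10 groups (eBayes with trend and robust), with Benjamini-Hochberg adjustment over 26877 probe sets. Symbols come from the platform annotation, matched for 34741 of 34945 single-gene probe sets. Genes with many probe sets are shown by the one with the highest mean.

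Named genes are the 15 largest rises and 15 largest falls without overlap and at least 1 log2 unit above the median, the 4 smallest p of each of 46 lists, the 5 smallest p of the difference between genotypes, and Glud1. Lgals3, Iqsec2, Ttr, Egr1, Egr2, Dusp1, Sema6c, Fos, Npas4, Nr4a1 and Junb are named outside this rule, after their values were seen. Alternatives changed the scaling, offset, filter, moderation, threshold, covariate, block and arrays. Members, lists and comparisons were chosen with earlier results of these data known. The fit was tested on simulated data. With 3 mice a group, the number of arrays limits the precision. Promoters and motifs come from RefSeq tables of GRCm38.p6.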

Additional observations from a re-analysis of the deposited data

Results flagged for a closer look

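The changes of 3 probe sets between 4.5 and 20 months stood apart between the genotypes, 2 of them by a test. Pnmt (Tg minus wt, -2.81) and the first probe set of Dbp (0.97) passed the test of the difference in limma (adjusted p = 0.0199 and 0.0378). The second probe set of Dbp (0.98) did not pass (adjusted p = 0.116), and is given because the 3 Tg mice of 20 months lay above, and the 3 wt mice of 20 months below, all mice of their genotype at 4.5 months. Of 26877 probe sets, 63 had such opposite separations. For the clock gene Dbp the part of the hour of death, which the labels do not give, was not tested.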

How the results depend on the processing

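The main count of 6084 probe sets was 1814 with the Gapdh ratio as a covariate and 3200 at a fold of 1.3 with an adjusted p of 0.01, and 3189 genes became 904 and 1591. The wt count was 2656 and 4239 under these 2 settings, and that of 9 over 4.5 months 5469 and 4736. At the stricter threshold 20 over 9, 14.5 over 9 and 20 over 14.5 months gave 3363, 5567 and 2317. The 2 probe sets that differed between genotypes became 0 with an offset of 50, with moderation that was neither trended nor robust (changed together) or at the stricter threshold, and 1 without a filter, above the 60th percentile or with the Gapdh covariate. Leaving out 1 Tg mouse gave 0 to 5 of these, 4754 to 5420 probe sets and 2511 to 2829 genes.

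Replicate numbers did not pair mice (correlations of -0.08, 0.06 and 0.02), and a replicate block gave 5991 probe sets and 3138 genes.

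Signs turned for these values. With the Gapdh covariate Egr2 had -0.022, Fos -0.37, Fosl2 -0.14, Npas4 -0.15, Nr4a1 -0.36, Oat -0.057, Ptgis -0.55, S100a9 -1.80, Ttr -1.68 and Lyz2 -0.38. By the median probe set Fosl2 had -0.090 and Laptm5 -0.41. Without quantile normalization Egr1 had 0.070. Without 1 Tg mouse Egr1 had -0.13 to 0.13, Junb -0.34 to 0.045 and Ttr -0.31 to 0.93. A further 40 of 104 named genes no longer passed with the Gapdh covariate. Among them were Camk2a (-0.41 with the covariate), Trem2 (1.44), Lyz1 (1.08), Vwf (0.75), Rarres2 (2.02), Txnip (0.86) and Slc16a1 (0.54). The causes were not tested.

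Calls were also lost when single Tg mice were left out. Without mouse 1 of 4.5 months the adjusted p of A2m, Dbp, Lgals3, Neurod1, Pmf1, Ptgis and Thrsp was 0.0585 to 0.16, without mouse 2 that of Dusp1, Egr2, Lgals3, Mt2, Pmf1, Ptgis and Thrsp 0.0527 to 0.173, and without mouse 3 that of A2m, Dbp, Dusp1, Egr2, H2-D1 and Ptgis 0.0559 to 0.151. Without mouse 1 of 20 months that of A2m, Dbp, Dusp1, Lgals3, Lyz2, Neurod1, Pmf1 and Ptgis was 0.05 to 0.142, without mouse 2 that of A2m, Dusp1, Fosl2, H2-D1, Lgals3, Lyz2, Neurod1, Pmf1 and Ptgis 0.0565 to 0.131, and without mouse 3 that of Egr2, Thrsp and Zic1 0.0633 to 0.345. By the median probe set Btg2, Dbp, Gas7, Grin2b, Kcnc1, Malat1, Mcm5, Ncan, Nfasc and Zbtb7b no longer passed.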
